A study of Mus musculus with 8 samples.

Results

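The genes described here are 10 negative-feedback and effector genes of the ERK pathway: the Sprouty genes Spry1, Spry2 and Spry4, the Spred genes Spred1, Spred2 and Spred3, the MAP kinase phosphatase genes Dusp4 and Dusp6, and the ETS factor genes Etv4 and Etv5. They were chosen by symbol, and all 10 were present among the 23997 symbols measured in each library. Poly(A) RNA was sequenced from neural stem/precursor cells of the mouse (NS/PCs), which divide in the embryonic brain and form neurons and glia. ICR embryos at E11.5 (E11 in the stage label) gave the telencephalon from which the cells were dissociated. They were kept as an adherent primary culture on poly-L-ornithine and fibronectin, with 10 ng/mL basic fibroblast growth factor (FGF). The first group consisted of 3 libraries of Nfia-transduced cells, and the second of 3 libraries of control cells, both collected 3 days after transduction. Nfia encodes a nuclear factor I (NFI) protein, which binds DNA and regulates transcription. The vector, its promoter and what the control cells received are not stated in the labels, and every library in both groups came from cells grown with FGF.

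Receptor tyrosine kinases such as the FGF receptors signal through Ras, Raf and MEK to the kinase ERK. ERK activity raises the transcription of a small group of genes whose products hold the same pathway in check, so their RNA is often used as a readout of ERK output. In the embryonic telencephalon Sprouty, Spred, Dusp6 and PEA3-group ETS genes are known for following FGF signalling. Sprouty proteins act between the receptor and Raf. Spred proteins bring the Ras inactivator neurofibromin to the membrane. Dusp4 and Dusp6 remove phosphate from ERK, Dusp4 in the nucleus and Dusp6 in the cytoplasm. Etv4 and Etv5 are DNA-binding proteins that activate transcription downstream of FGF.

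Levels are in FPKM, that is, fragments scaled to gene model length and to the mapped fragments of a library, which allows levels of different genes to be compared. The libraries totalled 474010 to 511700 FPKM, and the low values placed their depth between 0.760 and 1.11 of that of control 1, while the absolute depth is unknown. Nfia RNA was 69.0, 85.6 and 103.5 FPKM in the Nfia libraries, against 19.8, 23.9 and 22.2 FPKM in the control libraries. Neural precursor genes were present in every library, with Fabp7, Vim and Sox2 as the most abundant of 12 telencephalon and precursor markers. Separate cultures for the 3 libraries of a group are not mentioned in the labels, and the p-values therefore cover only library-to-library spread, possibly technical.

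Nfia-transduced cells held more Etv4, Spred2 and Spry2 RNA and less Dusp4 and Spred3 RNA than control cells. Of the 10 genes, 3 were higher and 2 lower at an adjusted p under 0.05 (limma on log2(FPKM + 1), Benjamini-Hochberg adjustment over 12537 genes), and 5 did not pass. Among all genes tested, 16.1% were higher and 15.1% lower, 31.3% together, and the 5 of 10 called here are too few to be called particular to these genes. The median log2 difference of the 10 genes was 0.07, and that of all genes tested was 0.0084. The Nfia libraries lay wholly above or wholly below the control libraries for 7 of the 10 genes, and for 47.7% of all genes tested. The calls of Spry2 and Spred2 were lost when single control libraries were left out, with log2 differences that stayed positive. Without control 3 only Etv4 was called higher, while leaving out control 1 gave 2 higher members and leaving out control 2 gave 4. Dusp4 and Spred3 were called lower in every setting tried.

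**Figure D1:**
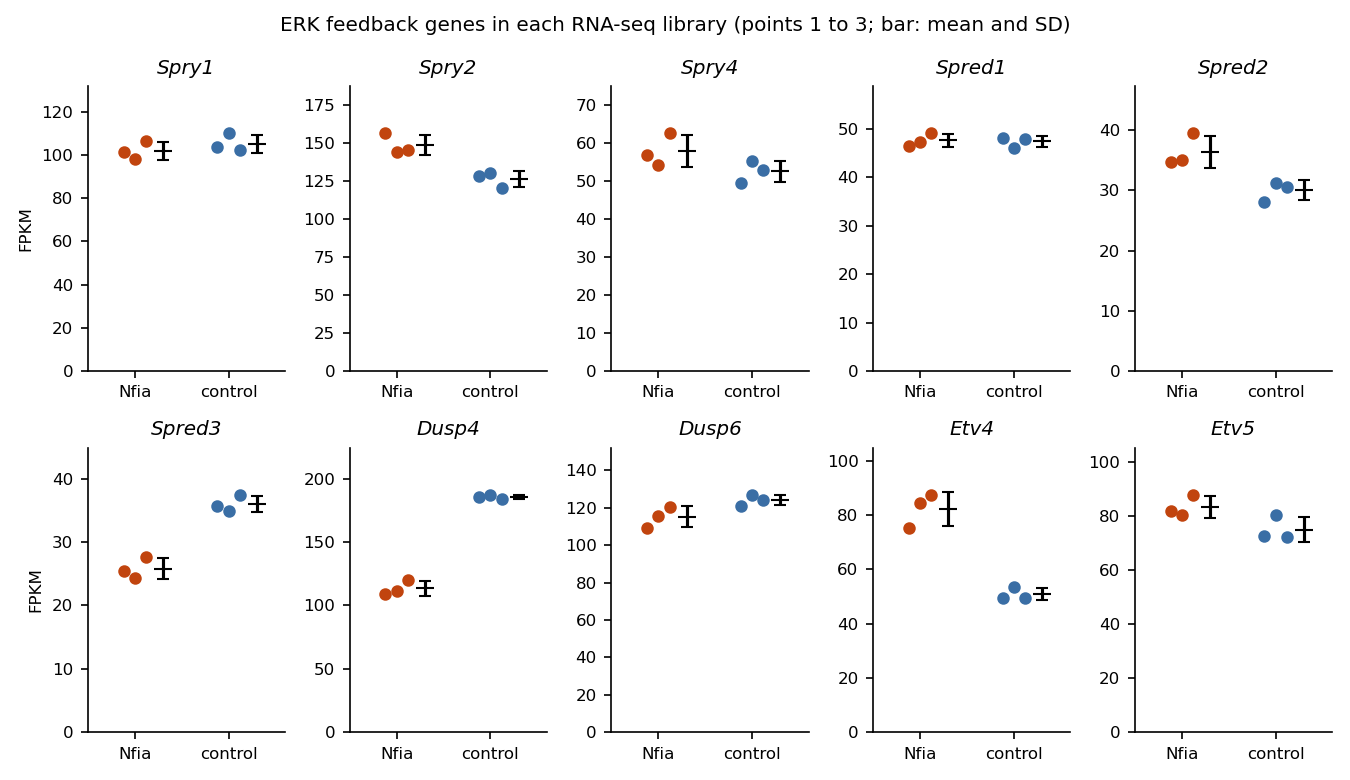
FPKM (y axis, from 0) of each ERK feedback gene in the 3 Nfia libraries (left, orange) and the 3 control libraries (right, blue), with the mean and SD as a bar beside the points. Dusp4 lies between 109 and 119.8 FPKM in Nfia libraries and between 184 and 187 FPKM in control libraries, while Spry1 and Spred1 overlap between the groups.

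Promoter windows of 250 bases before to 50 bases after a RefSeq start site (GRCm38.p6) were at hand for 7 of the 10 genes, 8 windows in all because Etv5 has 2 starts. The window of Spred3 belongs to a start 1423 bases inside the span of the gene. That of the downstream Etv5 start belongs to one 1202 bases inside. The start sites of the other windows lie at the 5′ end of the span. Spry4, Dusp4 and Etv4 had no window and were not searched. Both strands were searched for sites of factors tied to Nfia or to ERK. These were the NFI core TTGGCA, the NFI palindrome (TTGGC, 5 bases, GCCAA), the ETS site CCGGAAGT and the AP-1 site TGANTCA. For Capicua, a repressor of PEA3-group genes that ERK switches off, the forms TGAATGAA and TGAATGGA were searched. Its forms that start with TCAATG were not searched. TGAATG, the core that starts both Capicua forms searched, was added after the windows had been read. The 4 windows with a match are shown, 5′ to 3′ on the strand of the gene, with the matched letters in capitals.
Spred3, chr7:29168598-29168897, minus strand: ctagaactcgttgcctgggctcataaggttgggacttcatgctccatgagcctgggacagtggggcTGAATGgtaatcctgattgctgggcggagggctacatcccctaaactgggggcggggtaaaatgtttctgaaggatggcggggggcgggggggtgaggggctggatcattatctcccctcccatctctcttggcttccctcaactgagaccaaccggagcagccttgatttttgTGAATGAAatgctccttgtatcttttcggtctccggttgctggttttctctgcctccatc
Dusp6, chr10:99262981-99263280, plus strand: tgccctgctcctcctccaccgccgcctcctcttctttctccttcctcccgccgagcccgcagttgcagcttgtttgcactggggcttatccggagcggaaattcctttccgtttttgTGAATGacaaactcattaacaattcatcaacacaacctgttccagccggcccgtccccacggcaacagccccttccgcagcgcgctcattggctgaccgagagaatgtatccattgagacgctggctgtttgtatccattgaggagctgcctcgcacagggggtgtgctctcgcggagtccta
Etv5, downstream start, chr16:22438319-22438618, minus strand: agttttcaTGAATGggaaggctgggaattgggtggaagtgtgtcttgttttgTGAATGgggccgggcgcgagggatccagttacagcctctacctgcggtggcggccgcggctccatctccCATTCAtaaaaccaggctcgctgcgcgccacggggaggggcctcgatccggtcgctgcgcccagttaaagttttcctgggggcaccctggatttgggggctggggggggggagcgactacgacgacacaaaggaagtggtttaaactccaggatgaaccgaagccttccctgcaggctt
Spred2, chr11:19924192-19924491, plus strand: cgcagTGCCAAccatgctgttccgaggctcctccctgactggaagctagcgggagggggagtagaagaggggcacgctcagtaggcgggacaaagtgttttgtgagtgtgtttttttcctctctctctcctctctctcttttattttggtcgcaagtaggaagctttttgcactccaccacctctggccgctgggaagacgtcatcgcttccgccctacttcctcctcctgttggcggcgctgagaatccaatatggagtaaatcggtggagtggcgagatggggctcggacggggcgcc

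The Spred3 window held TGAATGAA 10 to 3 bases before the start site and a further TGAATG 184 to 179 bases before it. The first of these includes a copy of the core. TGAATGAA occurs in 1.30% of the 32851 promoter windows of the same length. In the Dusp6 window TGAATG lay 133 to 128 bases before the start. The Etv5 window of the downstream start had 3 copies of TGAATG, at 242, 198 and 129 bases before the start at their far ends, the last on the opposite strand. The core is common, being found in 12.7% of all windows. Spred2 had the NFI core, on the opposite strand, 245 to 240 bases before its start, and 14.1% of all windows hold it. The windows of Spry1, Spry2, Spred1 and the upstream start of Etv5 held none of these letters. No window of these genes held the NFI palindrome (0.0365% of all windows), TGAATGGA (1.21%), the ETS site (3.89%) or the AP-1 site (7.81%). Of the genes with a core match, Spred3 was called lower (log2 difference -0.47), and Dusp6 (-0.11) and Etv5 (0.15) were not called. A link between these matches and the differences was not tested. A match is a run of letters and not a measured binding site.

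**Figure D2:**
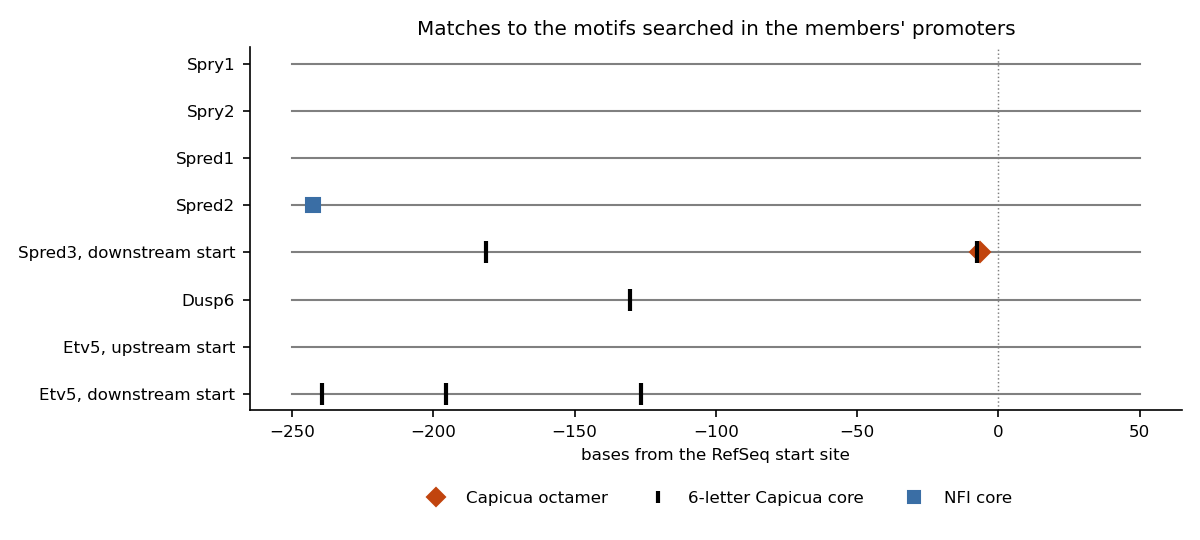
Motif matches along the 8 promoter windows, drawn by distance in bases from the RefSeq start site (dotted line). Of the Capicua octamers searched, only TGAATGAA (diamond) was found, in the Spred3 window, 10 to 3 bases before its downstream start. The downstream Etv5 window has 3 copies of the 6-letter core (ticks).

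Among the Sprouty genes, Spry2 was higher in Nfia-transduced cells and the other members did not pass the test. Spry2, whose product binds the ubiquitin ligase Cbl and blocks Ras activation by FGF, had 156, 144 and 145 FPKM in Nfia libraries, against 128, 130.4 and 120.1 FPKM in control libraries. All Nfia libraries lay above all control libraries. Spry2 averaged 149 ± 6.63 FPKM in Nfia-transduced cells and 126 ± 5.42 FPKM in control cells (SD, n = 3 per group), 1.18-fold higher (log2 difference 0.23, SE 0.05, adjusted p = 0.0175). Its call ended without control 3 (log2 difference 0.20, adjusted p = 0.0582). Spry1, the member best known from the developing kidney, had 101, 98.0 and 106 FPKM with Nfia, against 104, 109.9 and 102 FPKM in control. These ranges overlap, and the log2 difference of -0.046 had a 95% interval of -0.17 to 0.07 (adjusted p = 0.52). The interval leaves room for a small change in either direction. Spry4, which also binds Raf, had 56.7, 54.2 and 62.5 FPKM with Nfia, against 49.6, 55.1 and 52.8 FPKM in control. The groups overlap through the second library of each, and the log2 difference was 0.14 with an interval of -0.022 to 0.29 (adjusted p = 0.164). Summed over the 3 genes, Sprouty RNA was 314, 296 and 314 FPKM with Nfia, against 281, 295 and 275 FPKM in control. Nfia 2 and control 2 were almost level in this sum. In GRCm38 the genes span chromosome 3 from 37639947 to 37644599 (Spry1), chromosome 14 from 105891947 to 105896819 (Spry2) and chromosome 18 from 38586247 to 38601347 (Spry4).

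The Spred genes went in opposite directions. Spred3 fell by 28.3% to 25.8 ± 1.69 FPKM in Nfia-transduced cells, against 36.0 ± 1.29 FPKM in control cells (SD, n = 3 per group). Spred2 was 36.4 ± 2.65 FPKM in Nfia-transduced cells and 30.0 ± 1.65 FPKM in control cells, 1.21-fold higher. Spred1 differed by less than its spread. Spred3 had 25.5, 24.3 and 27.6 FPKM with Nfia, against 35.7, 34.9 and 37.4 FPKM in control. All 3 Nfia libraries were below all 3 control libraries, with a log2 difference of -0.47 (SE 0.06, adjusted p = 0.00191), and it lay between -0.51 and -0.43 when any 1 library was left out. Spred2, an inhibitor of Raf activation, had 34.7, 35.0 and 39.5 FPKM with Nfia, against 28.2, 31.3 and 30.6 FPKM in control. The groups did not overlap (log2 difference 0.27, SE 0.07, adjusted p = 0.0219), although the call ended without control 1 (log2 difference 0.23, adjusted p = 0.0641) or control 3 (log2 difference 0.28, adjusted p = 0.0542). Spred1, the gene mutated in Legius syndrome in humans, had 46.6, 47.4 and 49.1 FPKM with Nfia, against 48.2, 46.2 and 48.0 FPKM in control. Its log2 difference of 0.0065 had a 95% interval of -0.090 to 0.10 (adjusted p = 0.919), and its sign depended on the scaling. The family sum overlapped between the groups, at 107, 107 and 116 FPKM with Nfia, against 112, 112 and 116 FPKM in control. Spred1 spans chromosome 2 from 117121071 to 117182279, Spred2 chromosome 11 from 19924442 to 20024026 and Spred3 chromosome 7 from 29157783 to 29170070. The span of Spred3 overlaps Ggn, which was listed at 2.34 ± 0.195 FPKM with Nfia and 2.06 ± 0.828 FPKM in control, far below Spred3 itself.

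Of the phosphatase genes, Dusp4 had the largest decrease of the 10 genes, and Dusp6 did not pass the test. Dusp4 was the most abundant of the 10 genes in control cells, above 96.8% of all genes tested. It had 109, 111 and 119.8 FPKM in Nfia libraries, against 186, 187 and 184 FPKM in control libraries. The control values lay within 3 FPKM of each other, and every Nfia library was far below them. Dusp4 fell by 38.9% to 113 ± 5.60 FPKM with Nfia, against 186 ± 1.41 FPKM in control (SD, n = 3 per group), a log2 difference of -0.71 (SE 0.05, adjusted p = 0.000318). In size this difference ranked 633 among the 12537 genes tested. Dusp6, the cytoplasmic phosphatase that is specific to ERK, had 109, 116 and 121 FPKM with Nfia, against 121, 127 and 124 FPKM in control. All Nfia libraries lay below all control libraries, by less than 1 FPKM at the closest, and the log2 difference was -0.11 with an interval of -0.22 to 0.011 (SE 0.05, adjusted p = 0.148). The summed level of the pair was 219, 227 and 240.3 FPKM with Nfia, against 307, 314 and 308 FPKM in control. Dusp4 spans chromosome 8 from 34807610 to 34819894 and Dusp6 chromosome 10 from 99263231 to 99267489, where a long noncoding RNA gene, Gm34921, overlaps its span.

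Etv4 had the largest increase of the 10 genes. It had 75.4, 84.4 and 87.4 FPKM in Nfia libraries, against 49.7, 53.7 and 49.5 FPKM in control libraries. Every Nfia library exceeded every control library by more than the range of either group. Etv4 averaged 82.4 ± 6.24 FPKM with Nfia and 50.9 ± 2.38 FPKM in control (SD, n = 3 per group), 1.62-fold higher (log2 difference 0.68, SE 0.07, adjusted p = 0.000836), and its log2 difference ranked 676 in size among all genes tested. Etv5, its close paralog, had 81.8, 80.4 and 87.8 FPKM with Nfia, against 72.5, 80.3 and 72.1 FPKM in control. The lowest Nfia library and the highest control library were nearly equal, and control 2 stood above the other 2 control libraries. The log2 difference of Etv5 was 0.15 with an unadjusted 95% interval of 0.0091 to 0.29, and it did not pass after adjustment (adjusted p = 0.098). Without control 2 it did (log2 difference 0.20, adjusted p = 0.0475). Together the pair held 157, 165 and 175 FPKM with Nfia, against 122, 134 and 122 FPKM in control. Etv4 spans chromosome 11 from 101769747 to 101785310 and Etv5 chromosome 16 from 22381313 to 22439570.

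**Figure D3:**
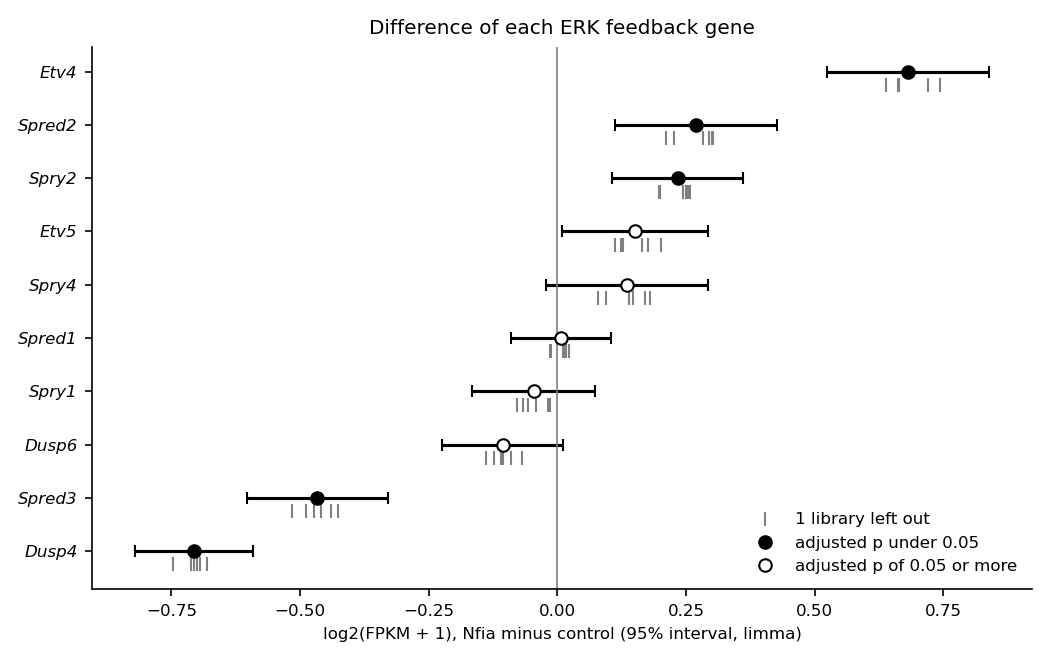
Log2(FPKM + 1) difference, Nfia minus control, of each gene with its 95% interval from limma (filled: adjusted p under 0.05), and below each point the values with 1 library left out (grey ticks). Dusp4 at -0.71 and Spred3 at -0.47 lie below 0, and Spry2, Spred2 and Etv4 lie above it at 0.23, 0.27 and 0.68.

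Of 8 ratios between paralogs computed within a library, 7 did not overlap between Nfia and control libraries. Over every pair of genes tested this share was 48.1%. The 3 ratios among Sprouty genes and the 3 among Spred genes reuse the same genes, so the count cannot be weighed against that share. Whether it is particular to these families was not tested. The ratio of Dusp4 to Dusp6 in a library was 1.00, 0.963 and 0.994 with Nfia, against 1.53, 1.48 and 1.49 in control. The pair was thus level with Nfia, while Dusp4 exceeded Dusp6 in each control library. The ratio of Etv4 to Etv5 was 0.922, 1.05 and 0.995 with Nfia, against 0.685, 0.668 and 0.686 in control, so Etv4 reached the level of Etv5 with Nfia. The ratio of Spred2 to Spred3 was 1.36, 1.44 and 1.43 with Nfia, against 0.790, 0.897 and 0.818 in control. This order reversed: Spred2 exceeded Spred3 in each Nfia library and was below it in each control library. For Spry2 and Spry1 the ratio was 1.54, 1.47 and 1.37 with Nfia, against 1.24, 1.19 and 1.18 in control, without a change of order. The ratio of Spry2 to Spry4 overlapped between the groups, at 2.58 ± 0.225 with Nfia and 2.41 ± 0.16 in control (SD, n = 3 per group). A ratio within a library is not changed by a scaling that uses 1 factor per library, but quantile normalization can change it. No p is given for the ratios, since 3 against 3 libraries allow an exact permutation p of 0.1 at the least.

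**Figure D4:**
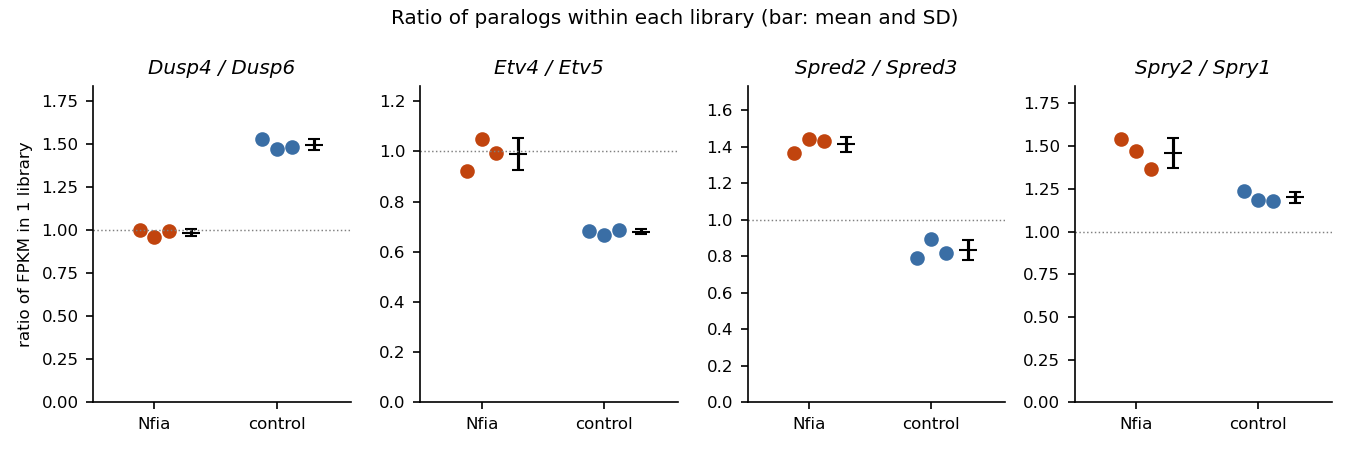
Ratio of the FPKM of 2 paralogs within each library (y axis, from 0; dotted line at 1) for Nfia (left) and control (right), with the mean and SD as a bar. Dusp4 to Dusp6 is 0.985 ± 0.0201 with Nfia and 1.5 ± 0.0307 in control, and Spred2 to Spred3 is 1.41 ± 0.0431 with Nfia and 0.835 ± 0.0556 in control.

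By level, the order of the 10 genes in Nfia-transduced cells was Spry2, Dusp6, Dusp4, Spry1, Etv5, Etv4, Spry4, Spred1, Spred2 and Spred3, from 149 to 25.8 FPKM. Neighbours in this order whose libraries overlapped were Dusp6 with Dusp4 and Etv5 with Etv4. In control cells the order was Dusp4, Spry2, Dusp6, Spry1, Etv5, Spry4, Etv4, Spred1, Spred3 and Spred2, from 186 to 30.0 FPKM. There the overlapping neighbours were Spry2 with Dusp6 and Spry4 with Etv4. Spry2, Dusp6, Spry1 and Etv5 kept the same order relative to each other in both groups.

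Of the other members of these families, 3 were higher and 2 lower among 7 tested. For this list and those that follow, the shares over all genes tested were 16.1% higher and 15.1% lower. Dusp10, a phosphatase that acts mainly on p38 and JNK, averaged 14.5 ± 0.912 FPKM with Nfia and 7.42 ± 0.475 FPKM in control (log2 difference 0.88, adjusted p = 0.000408). Dusp7, a cytoplasmic ERK phosphatase close to Dusp6, had a log2 difference of 0.49 and Dusp16, a JNK phosphatase, of 0.37. Those lower were Dusp8, which acts on JNK and p38 (log2 difference -0.52, adjusted p = 0.000626), and Etv1, the remaining gene of the PEA3 group. Etv1 was 25.3 ± 0.471 FPKM with Nfia and 31.5 ± 0.714 FPKM in control (log2 difference -0.31, adjusted p = 0.00221). The PEA3 group therefore held a called increase in Etv4 beside a called decrease in Etv1. Spry3 was listed at 0 in all 6 libraries.

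Among 14 genes listed as other feedback regulators of receptor and Ras signalling, 13 were tested. Of these 5 were higher and 1 lower, with a median log2 difference of 0.11. The list also holds Erf and Capicua, repressors that ERK acts on, and the pseudokinase gene Peak1, so its counts do not measure feedback alone. Erf, an ETS repressor that ERK drives out of the nucleus, averaged 46.9 ± 1.55 FPKM with Nfia and 31.0 ± 0.821 FPKM in control (log2 difference 0.58, adjusted p = 0.000396). Lrig1, which lowers the amount of ErbB receptors, had a log2 difference of 0.43 (adjusted p = 0.00146). Flrt3, a membrane protein that binds FGF receptors, was the lower gene (log2 difference -0.33, adjusted p = 0.00795). The remaining 3 of the 5 were nearer the threshold. Capicua itself (Cic) was 41.1 ± 4.58 FPKM with Nfia and 33.0 ± 2.60 FPKM in control (log2 difference 0.31, adjusted p = 0.0417), a call lost in 10 of 16 alternatives, among them those without Nfia 2 or 3 or any control library (adjusted p of 0.0506 to 0.114). Rasal2, a Ras GTPase-activating protein, and the pseudokinase gene Peak1 had log2 differences of 0.35 and 0.37. Both calls were lost without Nfia 2 or control 1, that of Rasal2 also without control 2 and that of Peak1 without Nfia 3 or control 3 (adjusted p of 0.0514 to 0.0752). The count of higher genes was 2 to 3 without control 1, 2 or 3 or Nfia 2 or 3. After quantile normalization 4 were higher and 3 lower, and 2 were lower with library weights or without Nfia 3.

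Upstream of the feedback genes, 5 of 11 receptor genes tested were higher and 1 lower (median log2 difference 0.14). Egfr, the epidermal growth factor receptor, averaged 45.3 ± 1.24 FPKM with Nfia and 18.6 ± 1.05 FPKM in control, 2.44-fold higher (log2 difference 1.24, adjusted p = 9.12e-05). Kit, Erbb2, Fgfr3 and the neurotrophin receptor gene Ntrk2 had log2 differences of 0.47, 0.39, 0.31 and 0.15. Pdgfra, the PDGF receptor of oligodendrocyte precursors, was lower (log2 difference -0.64, adjusted p = 0.00174). Fgfr1, the most abundant FGF receptor here, was 53.2 ± 4.25 FPKM with Nfia and 52.3 ± 2.61 FPKM in control and was not called (adjusted p = 0.838). Without control 1 the calls of Kit and Erbb2 were lost (adjusted p = 0.0536 and 0.0519), as was that of Fgfr3 without control 3 (adjusted p = 0.0517) and that of Ntrk2 without any 1 library, under upper-quartile scaling or with a robust trend (adjusted p of 0.0549 to 0.103). The count of higher receptors was 2 without control 1, 3 without control 3 and 6 with no filter on low values. Fgfr4 averaged 0.946 FPKM with Nfia and 0.195 FPKM in control. It lay below the minimum mean of 1 FPKM and was not tested.

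In the cascade from adaptor to kinase, 6 of 23 genes were higher and 3 lower (median log2 difference 0.023). Mapk3, which encodes ERK1, averaged 73.2 ± 1.58 FPKM with Nfia and 51.3 ± 1.5 FPKM in control (log2 difference 0.51, adjusted p = 0.000488). Rps6ka1, for the ERK-activated kinase RSK1, had a log2 difference of 0.94 (adjusted p = 0.0062), and Nras one of 0.28. Those lower were the adaptor genes Grb2 (log2 difference -0.26) and Frs3 (-0.37) and the Raf kinase gene Araf (-0.19). Without control 3 the counts were 3 higher and 1 lower. Araf was no longer called without control 3 or Nfia 2 (adjusted p = 0.0521 and 0.0552), nor Frs3 when control 1, control 3, Nfia 1 or Nfia 3 was dropped (adjusted p of 0.0537 to 0.0646).

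Other transcripts known to be induced by ERK also went both ways, with 5 of 14 higher and 3 lower (median log2 difference 0.068). Ier3, an early response gene, averaged 21.1 ± 3.85 FPKM with Nfia and 4.12 ± 0.703 FPKM in control (log2 difference 2.11, adjusted p = 0.000366). Log2 differences were 0.95 for the pseudokinase gene Trib1, 0.88 for Ccnd1, which encodes cyclin D1, 0.68 for Myc and 0.61 for Fosl2. Lower were the guidance receptor gene Epha4 (log2 difference -0.64), Fosb (-0.68) and Fos (-0.38). The call of Fos ended with no filter on low values, or when control 2, control 3, Nfia 2 or Nfia 3 was left out (adjusted p of 0.0632 to 0.108). Egr1, an immediate early gene, was 32.6 ± 4.30 FPKM with Nfia and 32.0 ± 2.97 FPKM in control and was not called (adjusted p = 0.904).

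**Figure D5:**
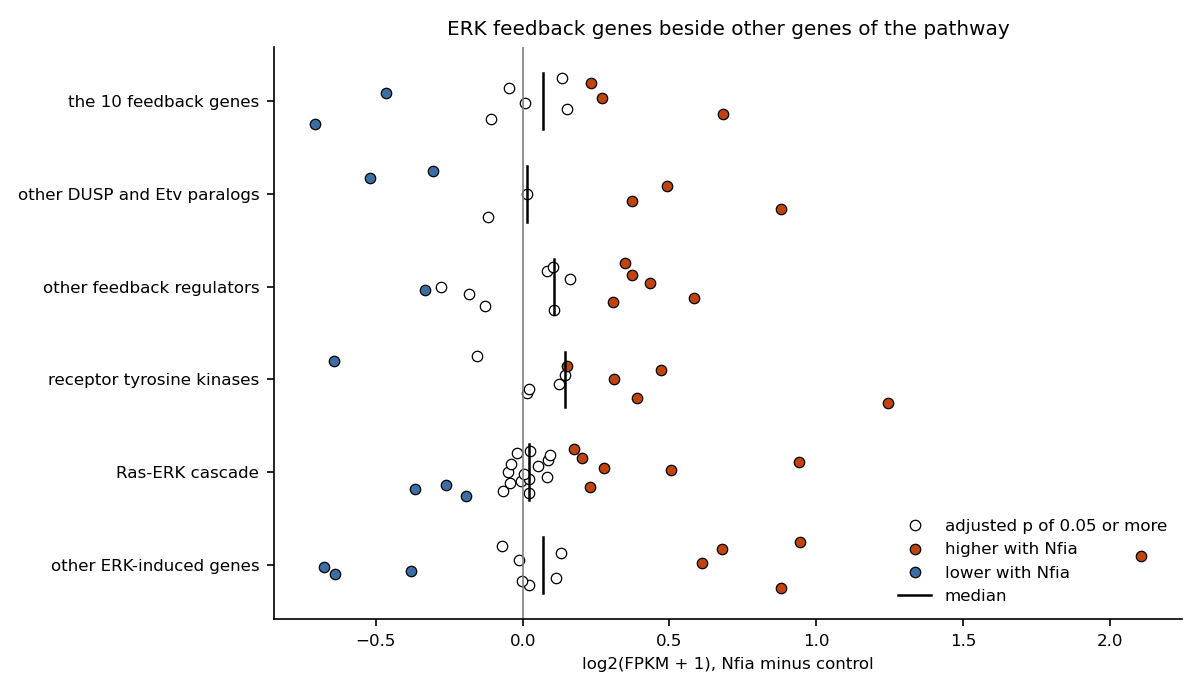
Log2(FPKM + 1) difference, Nfia minus control (x axis), of each tested gene of the 10 feedback genes and of 5 other lists of the pathway (orange: called higher, blue: called lower, open: not called, line: median). The 10 feedback genes run from -0.71 to 0.68 with a median of 0.07, and genes called in both directions occur in each list.

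Markers of other cells moved between the groups as well. Of 10 neuron markers 9 were lower and 0 higher, and their summed level was 1074 to 1095 FPKM with Nfia, against 1702 to 1783 FPKM in control. The 8 oligodendrocyte lineage markers, led by Olig1 and Olig2, summed to 1055 to 1116 FPKM with Nfia, against 364 to 411 FPKM in control, with 2 higher and 2 lower of 7 tested. Of 6 astrocyte markers tested 2 were higher and 2 lower, with a median log2 difference of 0.0050. The list summed to 338 to 351 FPKM with Nfia, against 246 to 273 FPKM in control. Aldoc and Slc1a3, with the highest mean levels of the list, were the higher genes, and Gfap and Aldh1l1 the lower. The part of all these markers in the values of Dusp4, Spred3, Etv4, Spred2 and Spry2 was not tested. In bulk RNA fewer cells of a type and less RNA per cell cannot be told apart. Markers of other sources of RNA were low: microglia markers summed to 1.94 to 2.58 FPKM with Nfia, against 2.71 to 3.12 FPKM in control, with Aif1 listed at 0 in all Nfia libraries. The endothelial and pericyte list summed to 4.76 to 6.01 FPKM with Nfia, against 7.84 to 10.7 FPKM in control. For fibroblast and meningeal markers the sums were 8.84 to 20.3 FPKM with Nfia and 12.2 to 21.6 FPKM in control.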

How the data were processed

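The authors deposited 1 FPKM value per gene symbol and library, without a header; the unit was inferred from the values and the tools. TopHat, Bowtie (version 1), SAMtools, Cufflinks and Cuffdiff, and build mm10, are listed in the submitters' processing notes, with no role. Annotation, filters and use of strand are not given there, although the kit was directional per the labels' protocols, so overlapping antisense genes may not be separated. Reads could not be recovered, and no counting interval is given. Flag and IgG ChIP libraries were not used here.

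The 12537 genes averaging at least 1 FPKM were compared as log2(FPKM + 1), a scale that understates changes of low genes. limma 3.58.1 under R 4.3.3 was used (lmFit, eBayes with a variance trend, two-sided), with Benjamini-Hochberg adjustment over all of them. Since FPKM is relative to a library, a rise of abundant transcripts lowers the rest. The step was tested on simulated data; a first limit on the bias of each run was exceeded in a single run, for the smallest fold put in, and was then replaced by a limit on the mean bias over the runs. Relative depth was read from the commonest ratio between libraries among genes averaging below 0.3 FPKM. Spans and promoters are from RefSeq tables of GRCm38.p6, which mm10 denotes.

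The members, lists and motifs were chosen with earlier results of these data known. All 10 members are named, and from each pathway list up to 4 called genes with the smallest adjusted p, plus those behind counts of 5 or fewer. Fgfr1, Egr1, Spry3, Ggn and Gm34921 were added after their values or positions were seen. Alternatives were a pseudocount of 0.1, no filter, a minimum mean of 5 FPKM, 3 scalings (upper-quartile, median-of-ratios, quantile), no or a robust variance trend, library weights, a replicate block, and leaving out each library.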

Additional observations from a re-analysis of the deposited data

How the results depend on the processing

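Of the 10 members, Dusp4, Spred3, Etv4, Spry1, Spry4 and Dusp6 kept their direction and their side of the threshold in all 16 alternatives. Dusp4 ranged from -0.75 to -0.68, Spred3 from -0.52 to -0.43 and Etv4 from 0.64 to 0.74 on the log2 scale. With 1 library left out, 1 to 4 members were higher and 2 lower, and over all genes 1311 to 1724 were higher and 1277 to 1620 lower. A group left with fewer libraries gives less power by construction. The log2 difference of Spred1, which was never called, changed sign under upper-quartile scaling (-0.022), median-of-ratios scaling (-0.0010), quantile normalization (-0.021), library weights (-0.00082), without Nfia 3 and without control 2; with 1 library left out it ran from -0.014 to 0.023, within its error of 0. Scaling moved the median of all genes to between -0.017 and 0.0017. Same-numbered libraries of the groups did not deviate together (correlations of 0.026, -0.0058 and 0.046 over genes), and 0 of the 3 Nfia libraries correlated best with the control library of its own number, so the numbers were not taken to pair the samples. With the replicate block 3 members were higher and 2 lower, the same counts as without it, and over all genes 2130 were higher and 1916 lower. Under the block Ntrk2 and Fos were no longer called (adjusted p = 0.0539 and 0.0734), and 2 of the other feedback regulators were lower, against 1 without it. Protein identity between paralogs was not computed, since no protein table was used here. Depth is unknown in absolute terms, and the log2 difference of 0.15 in Etv5 did not pass with 3 libraries a group.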

Other observations

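Within each group the members were mostly highest in the same library. Nfia 3 was the highest Nfia library for 9 of the 10 genes, all but Spry2, and for 38.7% of all genes tested. Among control libraries control 2 was the highest for 8 of the 10, all but Spred1 and Spred3, against 34.1% of all genes tested. After median-of-ratios scaling the counts were again 9 and 8, with 40.7% and 34.4% of all genes. Nfia 3 also held the most Nfia RNA, 103.5 FPKM, and had the lowest relative depth, 0.760 of that of control 1. The part of either in the pattern was not tested.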
